A study of Rattus norvegicus with 9 samples.

Results

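GABA-A receptors are chloride channels that open when GABA binds and carry most of the fast inhibition of the brain. Each channel is a ring of subunits drawn from several families, and the subunits present set where the receptor sits, how it responds to GABA and which drugs and neurosteroids act on it. Gabra2, Gabra3, Gabra4 and Gabra5 encode alpha subunits, Gabrb1 a beta subunit, Gabrg1 a gamma subunit and Gabrd the delta subunit. A gene was included if a row of the deposited array table was annotated with its symbol alone, and where a gene had several such rows the brightest was used. All 7 genes were found, among 22093 genes with such a row. The brightest row existed alone for 6 of them, and Gabra4 had a further, dim row with values between 4.60 and 4.78 on the log2 scale.

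The study covers 9 Clariom D rat arrays with RNA of male rats, whose strain and age the labels do not give. TFS hippocampus (3 arrays) is bilateral hippocampus taken 4 h after transcranial focal stimulation, a current passed through the scalp, here at 300 Hz and 50 mA for 5 min. Sham hippocampus (3 arrays) and sham parietotemporal cortex (3 arrays), both bilateral, come from rats handled alike without current. Cortex of stimulated rats was not analysed here, so the effect of TFS was compared in hippocampus only. No statement in the labels ties an array to an animal of its own, so the p-values below rest on the spread among these arrays, which may be technical. These are pieces of whole tissue, in which fewer cells of a type and less RNA per cell cannot be told apart.

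Some markers of the labelled tissues separated the regions and others did not. Of tested markers, 2 of 5 dentate and 2 of 3 hippocampal field ones were called higher in sham hippocampus by limma. Of 6 neocortical ones 4 were called lower there. Over all tested genes 5.99% were called higher and 6.46% lower. Not called were Calb1 at -0.07, Lefty1 at -0.03 and Fezf2 at -0.12 (log2, sham hippocampus minus sham cortex), among others. Prox1, the transcription factor of dentate granule cells, measured 7.88, 7.88 and 8.12 in sham hippocampus, against 6.03, 6.10 and 6.07 in sham cortex, while Tbr1, a cortical projection neuron factor, measured 7.92, 8.07 and 8.17 in sham hippocampus and 9.27, 9.07 and 9.42 in sham cortex. Some marker genes for these tissues, such as Spink8 and Iyd, lay under the limit for testing in every group. Among choroid plexus markers Ttr, the transthyretin gene, varied between hippocampal arrays and measured 11.19, 11.34 and 8.82 in TFS hippocampus and 10.64, 10.35 and 11.56 in sham hippocampus, against 7.43, 7.70 and 7.50 in sham cortex. Cortical array 2 had the highest mean over the 7 measured striatal markers, 7.20, against 6.68 and 6.71 on the other cortical arrays.

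Which subunit genes differ between hippocampus and parietotemporal cortex of sham rats was asked first. The alpha subunit genes went opposite ways: Gabra5 was 1.99-fold and Gabra2 1.65-fold higher in hippocampus, while Gabra3 was 0.463 times its cortical signal. Gabrb1 was 1.74-fold higher, and Gabrd was 0.547 times its cortical signal. In the limma fit over all 9 arrays, 3 members were called higher and 2 lower at an adjusted p under 0.05, and Gabra4 and Gabrg1 were not called. The members were chosen with earlier results of these data known. The shares of all tested genes below are therefore a description and no test of the members as a set. Over all 15522 genes tested 5.99% were called higher and 6.46% lower, 12.4% in all. Of these genes 11056 had a mean under 7.57, the 95th percentile of the negative control rows, and among members only Gabrd did. A value recurred on 3 or more arrays for 8554 tested genes. All shares of tested genes given here include such rows, and shares among brighter genes were not computed. With the array number as a replicate block in the 6 sham arrays alone 982 genes were called, against 1931 as reported and 1925 with the block over all 9 arrays, and 1285 without sham hippocampal array 2. All 7 members had an unadjusted p under 0.05, as did 25.6% of tested genes. For 6 members the regions did not overlap, 4 higher in hippocampus and 2 lower, against 24.1% of tested genes, 11.4% higher and 12.7% lower. The difference was above 0 for 4 of the 7, as for 46.3% of tested genes.

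**Figure D1:**
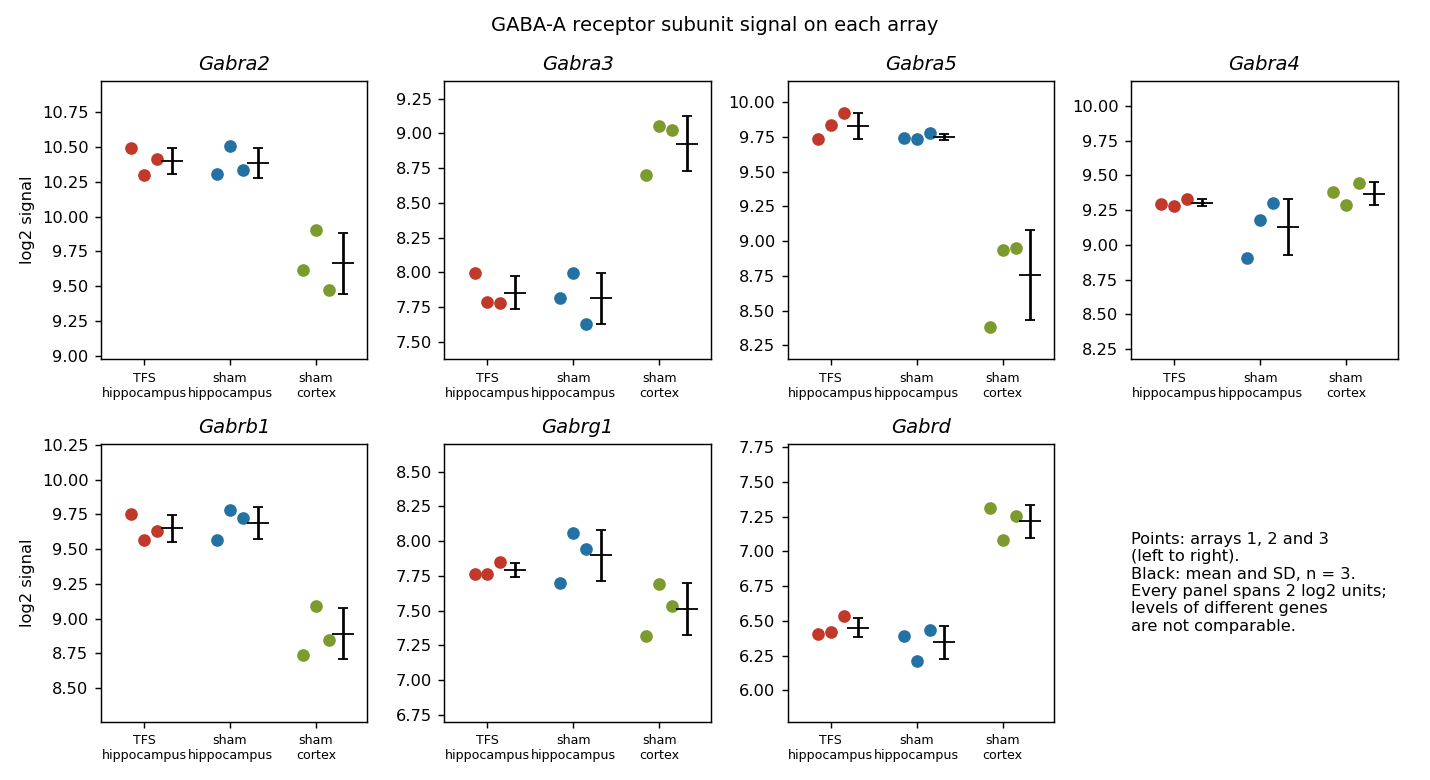
Log2 array signal (vertical axis) of the 7 subunit genes on each array of TFS hippocampus, sham hippocampus and sham cortex, with the mean and SD of the 3 arrays of a group in black. The hippocampal arrays of both groups lie above all cortical arrays for Gabra2, Gabra5, Gabrb1 and Gabrg1 and below them for Gabra3 and Gabrd, while TFS and sham hippocampus overlap for all 7 genes.

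The promoters of 4 of the 5 members called by the test are in the RefSeq table of build GRCr8 and are shown to set their base composition side by side: each window runs from 250 bases before to 50 after the annotated gene start, 5′ to 3′ on the gene's strand, with CG dinucleotides in capitals. The windows are chrX:155543821-155544120 on the minus strand for Gabra3, chr1:117516557-117516856 on the minus strand for Gabra5, chr14:36902844-36903143 on the minus strand for Gabrb1 and chr5:171252660-171252959 on the minus strand for Gabrd.
Gabra3: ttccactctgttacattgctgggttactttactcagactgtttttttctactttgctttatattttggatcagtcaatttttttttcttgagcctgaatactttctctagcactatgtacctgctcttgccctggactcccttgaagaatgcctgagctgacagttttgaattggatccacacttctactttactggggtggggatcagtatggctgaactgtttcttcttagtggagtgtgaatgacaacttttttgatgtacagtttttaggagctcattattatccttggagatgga
Gabra5: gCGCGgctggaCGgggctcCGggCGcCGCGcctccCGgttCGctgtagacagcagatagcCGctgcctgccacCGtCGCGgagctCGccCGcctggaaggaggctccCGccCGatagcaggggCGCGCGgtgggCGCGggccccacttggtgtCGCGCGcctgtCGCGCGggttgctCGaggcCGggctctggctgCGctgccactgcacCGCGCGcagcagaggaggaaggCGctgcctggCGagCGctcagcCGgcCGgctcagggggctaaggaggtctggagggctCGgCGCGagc
Gabrb1: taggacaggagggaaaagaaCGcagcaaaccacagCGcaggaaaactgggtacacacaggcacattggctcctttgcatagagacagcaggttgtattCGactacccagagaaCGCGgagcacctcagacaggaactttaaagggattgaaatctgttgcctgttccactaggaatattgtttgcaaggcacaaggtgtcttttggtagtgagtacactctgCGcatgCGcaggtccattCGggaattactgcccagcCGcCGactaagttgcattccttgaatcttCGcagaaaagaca
Gabrd: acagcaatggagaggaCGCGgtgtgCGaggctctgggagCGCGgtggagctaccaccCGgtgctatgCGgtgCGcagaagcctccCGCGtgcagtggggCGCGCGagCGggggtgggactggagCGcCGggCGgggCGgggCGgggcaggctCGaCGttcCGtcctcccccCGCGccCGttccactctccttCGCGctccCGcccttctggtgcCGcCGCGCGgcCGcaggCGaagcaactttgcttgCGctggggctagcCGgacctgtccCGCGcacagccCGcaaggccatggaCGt
CG dinucleotides numbered 0 in the Gabra3 window, 42 in that of Gabra5, 11 in that of Gabrb1 and 40 in that of Gabrd, where the median over all 33469 promoters of the table was 7. As many as 42 occurred in 2.4% of promoters and as many as 40 in 3.24%. The densest window, that of Gabra5, belongs to a gene higher in hippocampus, and the next, that of Gabrd, to a gene lower in hippocampus. A relation of density to direction was not tested, and these 4 windows are too few for it. The 6 member promoters in the table were searched on both strands for TGACG, the core of the cyclic AMP response element, and for the E-boxes CAGCTG and, as another form, CACGTG. Each of the 3 motifs was found in 0 of the 6 windows, which says only that these letters are not there. Over all promoters 21.2% held the first motif, 15.1% the next and 6.42% the last.

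Gabra5 encodes the alpha subunit of extrasynaptic receptors that carry tonic inhibition in hippocampal pyramidal cells. It measured 9.74, 9.73 and 9.78 in sham hippocampus, against 8.38, 8.94 and 8.95 in sham cortex. The regions did not overlap, and cortical array 1 lay well below the other cortical arrays. The difference was 0.99 (SE 0.14, 95% confidence interval 0.66 to 1.33, adjusted p = 0.00404 by limma), a size that 0.838% of tested genes reached. Without cortical array 1 it was 0.81 (adjusted p = 0.000617 by limma). With the array number as a replicate block in the 6 sham arrays alone the call was lost (adjusted p = 0.0563), and in the block over all 9 arrays it held (adjusted p = 0.00607). The block over 9 arrays also groups TFS arrays by number, which were not found paired with sham hippocampal ones, so it does not offset the lost call.

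Gabra2 encodes the alpha subunit known from synapses on the axon initial segment of principal cells. Its signal was 10.31, 10.51 and 10.34 in sham hippocampus, against 9.61, 9.90 and 9.47 in sham cortex, with no overlap. Hippocampus was higher by 0.72 (SE 0.11, interval 0.46 to 0.98, adjusted p = 0.00573 by limma). Without both sham arrays numbered 1 the difference was 0.74 and did not pass (adjusted p = 0.0573).

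Gabra3, whose alpha subunit is known from monoaminergic neurons, the reticular thalamus and the cortex, had the largest difference of the 7 genes. It measured 7.82, 8.00 and 7.63 in sham hippocampus, against 8.70, 9.05 and 9.02 in sham cortex. Every hippocampal array lay below every cortical one. The difference was -1.11 (SE 0.125, interval -1.40 to -0.82, adjusted p = 0.00138 by limma), and 0.618% of tested genes differed by as much.

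Gabra4 encodes an alpha subunit that pairs with delta in extrasynaptic receptors of dentate granule cells and thalamus. It measured 8.91, 9.18 and 9.30 in sham hippocampus, against 9.38, 9.28 and 9.44 in sham cortex. The regions overlapped, since hippocampal array 3 lay above cortical array 2. The difference of -0.24 (SE 0.09, interval -0.46 to -0.021) did not pass (adjusted p = 0.1585 by limma), and it was -0.13 without hippocampal sham array 1, the lowest of the 3, and -0.12 as the mean of both rows of the gene. The further row was dim, with 35.8% of negative control rows above it, so averaging it in narrows a difference of the bright row.

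Gabrb1, whose beta subunit contributes to the GABA binding site, measured 9.56, 9.79 and 9.72 in sham hippocampus, against 8.74, 9.09 and 8.85 in sham cortex. All hippocampal arrays lay above all cortical ones. The difference of 0.80 (SE 0.10, interval 0.56 to 1.03, adjusted p = 0.00217 by limma) was reached by 1.46% of tested genes.

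Gabrg1 encodes a gamma subunit that gives receptors with weak sensitivity to classical benzodiazepines. It measured 7.70, 8.06 and 7.94 in sham hippocampus, against 7.32, 7.69 and 7.53 in sham cortex. The arrays did not overlap, but the lowest hippocampal value lay only just above the highest cortical one. Cortical arrays 1 and 3 lay in the range of background, under 7.57, the 95th percentile of the negative control rows. The difference of 0.38 (SE 0.11, interval 0.12 to 0.65) did not pass (adjusted p = 0.0729 by limma). With the array number as a fixed replicate block it passed, at an adjusted p of 0.0296 over 9 arrays and 0.0191 over the 6 sham arrays, and with the number as a random block it did not (adjusted p = 0.0556 by limma).

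Gabrd encodes delta, the subunit of extrasynaptic receptors with high affinity for GABA and strong sensitivity to neurosteroids. Its signal was 6.39, 6.21 and 6.44 in sham hippocampus, against 7.31, 7.08 and 7.25 in sham cortex, without overlap. Hippocampus was lower, with a difference of -0.87 (SE 0.08, interval -1.05 to -0.69, adjusted p = 0.000493 by limma). Its signal lay in the range of background on every array, under 7.57, the 95th percentile of the 1153 negative control rows, of which 8.93% had a higher mean. Of these rows 4.68% lay above Gabrg1, 3.73% above Gabra3 and at most 1.56% above each of the other members, and signal near background can narrow a difference.

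**Figure D2:**
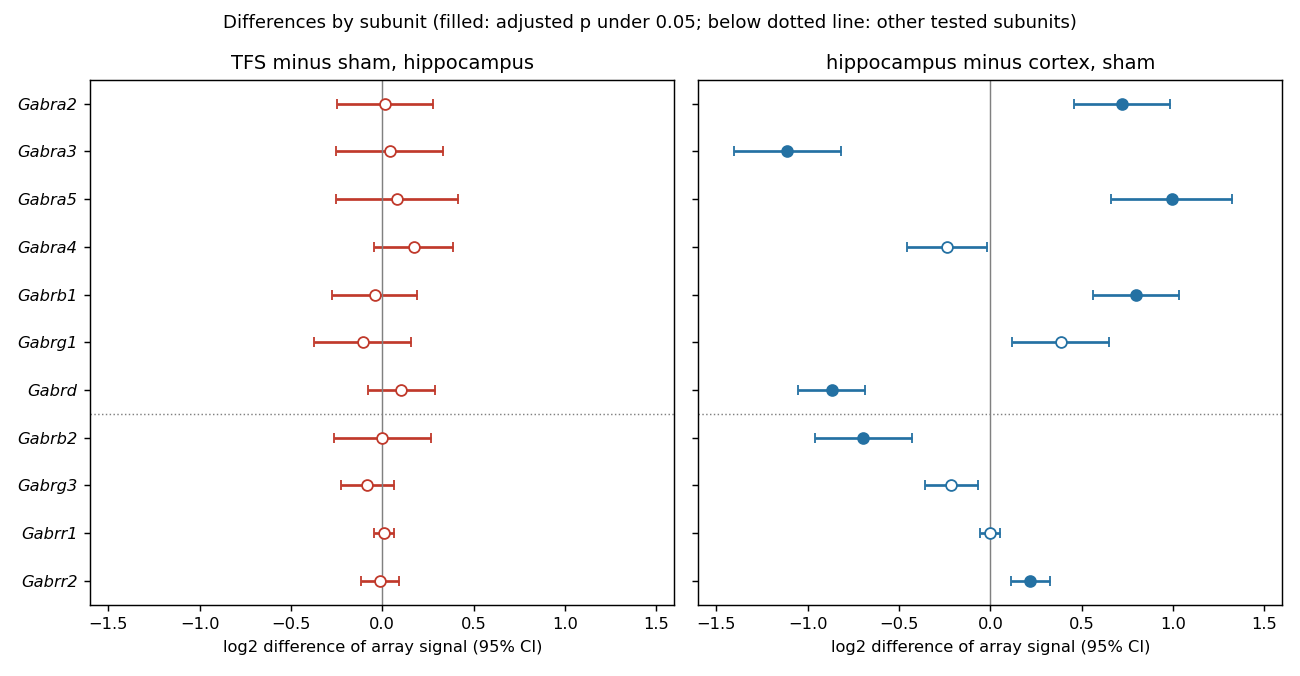
Log2 differences (horizontal axis, with 95% confidence intervals of the limma fit) of the 7 members and, below the dotted line, of the 4 other subunit genes tested, for TFS minus sham in hippocampus on the left and hippocampus minus cortex in sham rats on the right. Filled points passed an adjusted p of 0.05, as 5 members did between regions and 0 did after TFS.

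Of the members, 4 lie in a row in the genome. In the RefSeq gene order of GRCr8 Gabrb1 is followed by Gabra4 with 0 protein-coding genes between them and on the opposite strand, then by Gabra2 with 1 between, Cox7b2, and by Gabrg1. Gabrb1 and Gabra2 were higher in hippocampus, Gabrg1 had a value above 0 and Gabra4, in the midst of the row, a value below 0. The within-array difference of Gabrb1 minus Gabra4 was 0.56 ± 0.12 in sham hippocampus, against -0.48 ± 0.25 in sham cortex (SD, n = 3 each, log2), and the regions did not overlap. That of Gabra2 minus Gabra4 was 1.25 ± 0.19 in sham hippocampus and 0.29 ± 0.30 in sham cortex, and that of Gabrg1 minus Gabra4 was -1.23 ± 0.12 in sham hippocampus and -1.86 ± 0.24 in sham cortex (SD, n = 3 each). These differences serve to compare regions and not the levels of the genes. Each of the 3 gave p = 0.1 in a two-sided exact permutation test, the smallest that 3 against 3 arrays can give. The 3 share the Gabra4 values, and the regions already separated for Gabrb1, Gabra2 and Gabrg1 while Gabra4 lay the other way. This outcome was thus largely set by the values above and adds no support to them. Gabra5 lies next to Gabrg3, which had a difference of -0.21 (adjusted p = 0.0714 by limma).

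Of 9 other subunit genes measured, 4 had enough signal to be tested. Gabrb2, the beta subunit of the most common receptor, measured 8.57, 8.79 and 8.83 in sham hippocampus, against 9.48, 9.39 and 9.39 in sham cortex, a difference of -0.69 (SE 0.11, adjusted p = 0.00705 by limma). It lay opposite to Gabrb1. Gabrr2, a rho subunit best known from retina, was higher by 0.22 (adjusted p = 0.0189 by limma) at a level that 18.8% of negative control rows exceeded. Gabrr1 differed by -0.0017 (adjusted p = 0.984). Gabra6, the alpha subunit of cerebellar granule cells, had means of 3.41 in sham hippocampus and 3.48 in sham cortex and was not tested, nor were Gabre, Gabrp, Gabrq and Gabrr3.

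Genes that place GABA-A receptors at synapses went both ways between regions. Of 23 listed genes for anchoring and trafficking 22 were tested, with 5 called higher, 2 lower and a median difference of 0.03, against -0.0044 over all tested genes. Of all tested genes 5.99% were called higher and 6.46% lower. Iqsec3, an exchange factor bound to the inhibitory scaffold gephyrin, was higher by 0.28 (adjusted p = 0.00389), and the adaptor Trak2 by 0.30 (adjusted p = 0.0103). The kinesin gene Kif5a lay at -0.51 (adjusted p = 0.00194), and Plcl2 lay at -0.37 (adjusted p = 0.00569, all by limma). Gphn, gephyrin itself, differed by 0.03 (adjusted p = 0.642). Among 9 genes for the chloride gradient 1 was called, the neuronal chloride exporter Slc12a5, at -0.26 (adjusted p = 0.0139). Its importing counterpart Slc12a2 was at 0.34 without passing (adjusted p = 0.111). Of 6 genes for endogenous modulators 3 were tested and 0 called by limma at the adjusted threshold, with 0 at an unadjusted p under 0.05. The benzodiazepine receptor ligand gene Dbi lay at 0.07, Tspo of the outer mitochondrial membrane at 0.07 and the cholesterol transporter Star at -0.01. These 3 rows lay in the range of background on every array, under 7.57. Of the negative control rows 17.3% lay above Dbi, 17.9% above Tspo and 25.1% above Star, and Dbi had the same value on 7 arrays. A difference in these genes could thus be missed.

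Markers of cell types also differed between regions, and their part in the members' differences was not tested. Of all tested genes 5.99% were called higher and 6.46% lower by limma. An unadjusted p under 0.05 by limma was reached by 25.6%, and for 24.1% the regions did not overlap. Of 8 interneuron markers 4 were called lower in hippocampus, with list means of 7.83 to 8.00 in sham hippocampus, against 8.28 to 8.40 in sham cortex. Vip, a peptide of one interneuron class, lay at -1.02 (adjusted p = 2.5e-05) with its signal in the background range on every array, under 7.57, while the general GABA neuron gene Gad2 lay at -0.04 and was not called. Of 8 astrocyte markers, a cell type known to carry some GABA-A receptors, 1 was called higher, and the list means were 8.78 to 8.80 in sham hippocampus and 8.57 to 8.73 in sham cortex. Of 6 oligodendrocyte markers measured 1 was called higher, with list means of 8.80 to 9.00 in sham hippocampus and 8.26 to 8.76 in sham cortex. All 6 were higher at an unadjusted p under 0.05 by limma, and for 4 the regions did not overlap. Choroid plexus list means were 6.27 to 7.12 in sham hippocampus and 5.31 to 5.38 in sham cortex, with 1 of 5 tested markers called higher, Ttr. All 5 were higher without overlap, 4 of them at an unadjusted p under 0.05 by limma. General neuron lists overlapped, at 10.78 to 10.83 in sham hippocampus and 10.74 to 10.83 in sham cortex, with 2 of 5 markers called higher, Stmn2 and Nefl (adjusted p = 0.0425 and 0.0333 by limma). Rbfox3 at -0.16 and Snap25 at -0.10 were not called, though their regions did not overlap. Of 6 microglial, 3 oligodendrocyte precursor and 5 thalamic markers 0 were called, and of 5 endothelial markers 1 was called lower. Thalamic list means did not overlap, at 6.27 to 6.38 in sham hippocampus and 6.46 to 6.48 in sham cortex, nor did endothelial ones, at 7.04 to 7.18 in sham hippocampus and 7.37 to 7.39 in sham cortex. Striatal markers ran from 6.49 to 6.51 in sham hippocampus and from 6.68 to 7.20 in sham cortex, with 1 of 7 called lower. Without cortical array 2, where that list was highest, the regional difference was 0.84 for Gabra2, 1.08 for Gabra5, -1.05 for Gabra3, -0.28 for Gabra4, 0.90 for Gabrb1, -0.94 for Gabrd and 0.47 for Gabrg1, which then passed (adjusted p = 0.0394 by limma). Gabra3 alone lay nearer to 0 than with that array.

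**Figure D3:**
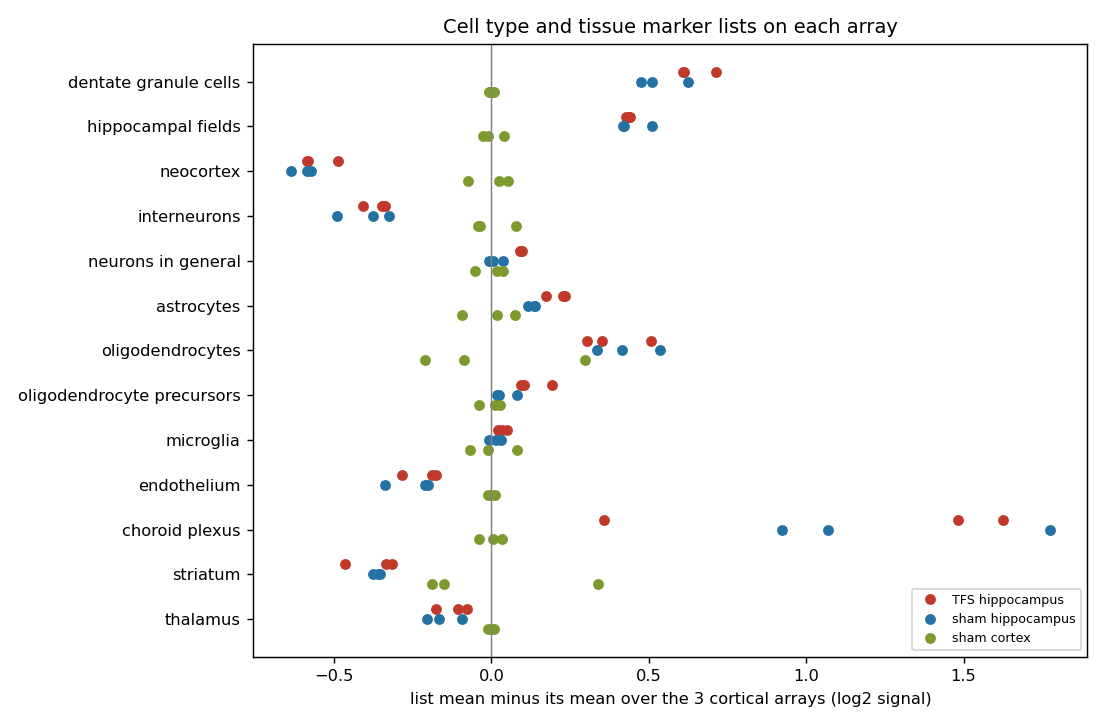
Mean log2 signal of each marker list on each array, minus its mean over the 3 cortical arrays (horizontal axis), for TFS hippocampus, sham hippocampus and sham cortex. Dentate, hippocampal and choroid plexus lists lie to the right of cortex in both hippocampal groups, neocortex and interneuron lists to the left, and choroid plexus spreads most among the hippocampal arrays.

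The effect of TFS was asked in hippocampus 4 h after stimulation. No member was called by limma, at an adjusted p under 0.05 or at an unadjusted p under 0.05, and TFS and sham arrays overlapped for all 7. Over all tested genes 0 were called, which is 0%, while 5.19% had an unadjusted p under 0.05 and 9.77% had arrays that did not overlap, 8.57% higher and 1.2% lower after TFS. The members' differences ran from -0.11 for Gabrg1 to 0.17 for Gabra4, with a median of 0.04, against 0.0115 over all tested genes. The sign was above 0 for 5 of the 7, and for 61.1% of all tested genes.

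Gabra4 had the largest difference. It measured 9.29, 9.28 and 9.33 in TFS hippocampus, against 8.91, 9.18 and 9.30 in sham hippocampus. The TFS arrays lay within the upper part of the sham range or just above it, and the spread was narrower after TFS, at 9.30 ± 0.025 (SD, n = 3), than in sham, at 9.13 ± 0.20 (SD, n = 3). The difference of 0.17 (SE 0.09, interval -0.047 to 0.39, adjusted p = 0.923 by limma) was 0.06 without sham array 1, 0.26 without sham array 3 and 0.053 as the mean of both rows, where the dim row narrows it.

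Gabrd measured 6.40, 6.42 and 6.53 in TFS hippocampus, against 6.39, 6.21 and 6.44 in sham hippocampus. The groups overlapped, with a difference of 0.10 (SE 0.08, interval -0.079 to 0.29, adjusted p = 0.923 by limma) that was 0.037 without sham array 2 and 0.064 without TFS array 3. Gabra5 measured 9.74, 9.83 and 9.92 in TFS hippocampus, against 9.74, 9.73 and 9.78 in sham hippocampus. Its TFS arrays 2 and 3 lay above all sham arrays and TFS array 1 did not, and the difference was 0.08 (SE 0.14, interval -0.25 to 0.41, adjusted p = 0.966 by limma), or 0.13 without TFS array 1 and 0.035 without TFS array 3.

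Gabrg1 measured 7.76, 7.77 and 7.85 in TFS hippocampus, against 7.70, 8.06 and 7.94 in sham hippocampus. Its TFS values fell between the sham ones, and the difference of -0.11 had an interval of -0.37 to 0.16 (adjusted p = 0.933 by limma), and was -0.21 without sham array 1 and -0.027 without sham array 2. Gabrb1 measured 9.76, 9.56 and 9.63 in TFS hippocampus, against 9.56, 9.79 and 9.72 in sham hippocampus. TFS array 2 and sham array 1 shared 1 value exactly, and the difference was -0.04 (interval -0.28 to 0.19, adjusted p = 0.978 by limma).

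Gabra3 measured 8.00, 7.79 and 7.78 in TFS hippocampus, against 7.82, 8.00 and 7.63 in sham hippocampus. Again an array of each group held the same value, and the difference was 0.04 (interval -0.25 to 0.33, adjusted p = 0.990 by limma). Gabra2 measured 10.49, 10.30 and 10.41 in TFS hippocampus, against 10.31, 10.51 and 10.34 in sham hippocampus, a difference of 0.02 (interval -0.25 to 0.28, adjusted p = 1 by limma). Over the 7 members the intervals reached no further than -0.37 on the lower and 0.41 on the upper side.

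Genes around the receptor gave no call after TFS either. Of the 22 anchoring and trafficking genes tested, 3 had an unadjusted p under 0.05 by limma, all higher, against 5.19% of all tested genes. They were Clptm1, which holds receptors in the endoplasmic reticulum, at 0.06, the fusion ATPase Nsf at 0.12 and Arfgef2 at 0.07 (adjusted p = 0.904, 0.921 and 0.921 by limma). The synaptic adhesion gene Slitrk3 lay at 0.15 (adjusted p = 0.923 by limma) with TFS above sham on all arrays, as for 8.57% of all tested genes. For the chloride exporter Slc12a5 the difference was 0.11 (adjusted p = 0.923 by limma), with values of 9.18, 9.17 and 9.18 in TFS hippocampus, against 9.12, 9.04 and 9.05 in sham hippocampus. Of the 9 chloride genes and the 3 modulator genes tested 0 were called and 0 had an unadjusted p under 0.05. The 3 modulator genes lay in the range of background. Gabrb2 differed by -0.00060 (interval -0.27 to 0.27). Some cell type lists also stood higher after TFS, and their part in the members' values was not tested. Such a rise was not particular to these lists, since 61.1% of all tested genes had a difference above 0. Medians of the positive control rows were 8.10, 8.05 and 8.12 in TFS hippocampus, against 7.93, 8.015 and 8.06 in sham hippocampus. A shift of the arrays and a change of cell types cannot be told apart here. General neuron list means were 10.88 to 10.89 in TFS hippocampus, against 10.78 to 10.83 in sham hippocampus, and those of astrocytes 8.83 to 8.89 in TFS hippocampus, against 8.78 to 8.80 in sham hippocampus, without overlap. Those of oligodendrocyte precursors did not overlap either, at 7.54 to 7.64 in TFS hippocampus and 7.46 to 7.53 in sham hippocampus. No marker of the 3 lists was called by limma, with 1 of 5 neuron, 3 of 8 astrocyte and 1 of 3 precursor markers at an unadjusted p under 0.05, against 5.19% of all tested genes. Dentate granule cell lists overlapped, at 7.12 to 7.22 in TFS hippocampus and 6.98 to 7.13 in sham hippocampus.

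In both hippocampal groups the members kept their position relative to cortex. All TFS arrays lay beyond all cortical arrays for Gabra2, Gabra5, Gabrb1 and Gabrg1 on the upper side and for Gabra3 and Gabrd on the lower side. TFS and cortex differ in region and treatment together, so no test was made between them. For Gabra4 the means were 9.30 ± 0.025 in TFS hippocampus, 9.13 ± 0.20 in sham hippocampus and 9.37 ± 0.080 in sham cortex (SD, n = 3 each), and groups next to each other in level lay within these spreads. The comparisons with sham hippocampus share its 3 arrays: Gabra4 had 0.17 after TFS and -0.24 between regions, Gabrd 0.10 and -0.87, and Gabrg1 -0.11 and 0.38.

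The genes whose values followed each member most closely over the 9 arrays were found by Pearson correlation among tested genes. The arrays fall into regions, so any gene that differs between them correlates with such a member, and the values are a description. Gabra2 was followed by the adhesion molecule gene Lsamp (r = 0.994), the transcription factor gene Nfib (r = 0.989) and the phosphatase gene Ptprg (r = 0.988). Lsamp was also among the closest to Gabrb1 (r = 0.993), beside the hydroxylase gene Cyp7b1 (r = 0.994) and Lonrf3 (r = 0.991). For Gabra5 they were the kinesin gene Kif13a (r = 0.996), the doublecortin-like kinase gene Dclk2 (r = 0.994) and Plekhg1 (r = 0.993). Gabra3 was followed by Klf5 (r = 0.988), the ephrin gene Efnb2 (r = 0.984) and Glce (r = 0.982), and Gabrd by the kinase gene Mapk11 (r = 0.991), Otud1 (r = 0.988) and Boc (r = 0.988). Gabra4, whose values hardly separate the regions, was followed by the RNA-binding protein gene Celf1 (r = 0.984), Ndufs4 of respiratory complex I (r = 0.969) and Kalrn (r = 0.968). Gabrg1 was followed by Mgat4c (r = 0.973), Mbd2 (r = 0.972) and the pseudogene Tpt1-ps4 (r = 0.971), whose probes may share signal with related copies.

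**Figure D4:**
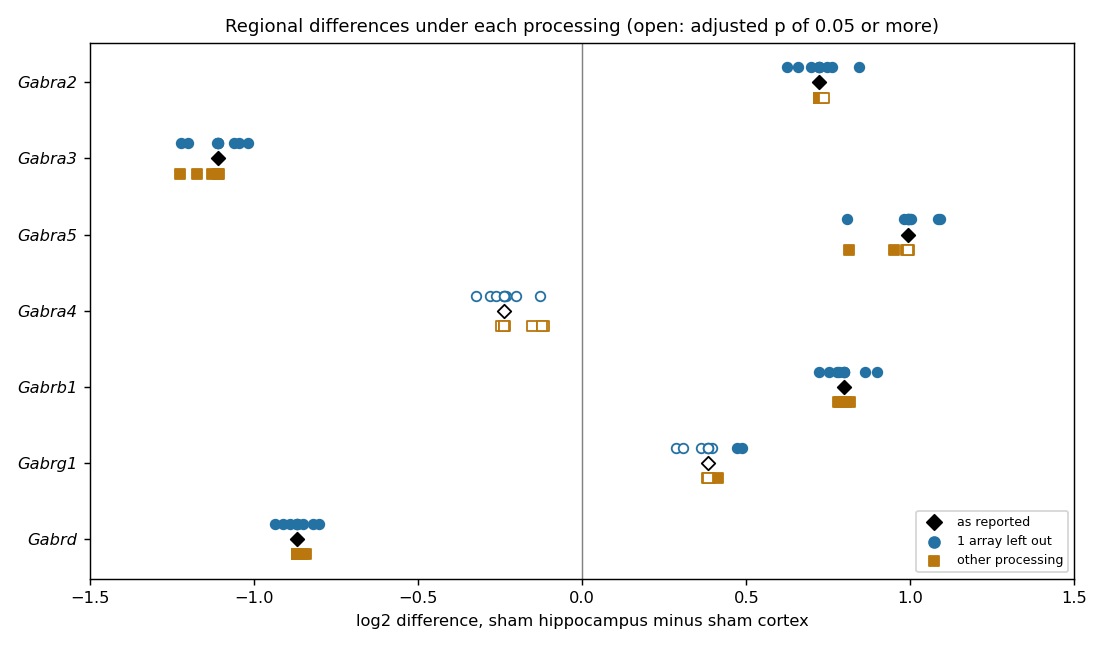
Log2 difference of sham hippocampus minus sham cortex (horizontal axis) of each member as reported, with 1 of the 9 arrays left out and under the other processing choices, open where the adjusted p was 0.05 or more. No member changes side of 0: Gabra3 stays between -1.23 and -1.02, Gabra5 between 0.81 and 1.09, and Gabrg1, between 0.29 and 0.49, moves across the threshold.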

How the data were processed

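Expression was measured in 9 samples with Clariom D rat arrays, which have no read depth. Precision depends on how many arrays there are. The authors deposited log2 values, 1 column per array, all of them used. Tools listed for them are RMA and limma, per the submitters' processing notes, with no version, role or order. Genome build and annotation version were not given in the sources used here. Positive control rows lay 3.67 to 4.00 log2 units above negative ones in array medians. Of 68842 transcript clusters 23446 had 1 gene symbol, 505 several and 44891 none. The brightest row per gene was used, and the 15522 genes whose mean reached 4.99, the median over all rows, were tested.

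A mean per group was estimated from the 9 arrays together by lmFit and eBayes (limma 3.58.1, R 4.3.3), with two-sided tests and p-values adjusted by Benjamini-Hochberg over all tested genes; log2 differences, folds and intervals come from this fit. It was tested on simulated data. The members and lists were chosen with earlier results of these data known. Genes named are the members, up to 4 genes with the smallest p of each list, those of most similar pattern, and markers or genes named after their values were seen (Gphn, Slc12a2 beside Slc12a5, Gabrr1, Ttr, Prox1, Tbr1, Vip, Gad2, Spink8 and Iyd among them). Protein sequences and the promoter of Gabra2 were not used here. For sham arrays with the same number in hippocampus and cortex, deviations from group means correlated across genes at 0.416, 0.202 and 0.252, which by a limit of 0.1 set for all pairs counts as pairing, although deviations that cancel within a group build part of this in; TFS and sham hippocampal arrays correlated at -0.111, -0.287 and -0.025 and were not paired. The fit reported here has no block for these numbers, and the block over all 9 arrays also groups the TFS arrays by number. Alternatives were other filters, scalings, fits, blocks and leaving out each array.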

Additional observations from a re-analysis of the deposited data

How the results depend on the processing

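Over 21 to 22 alternatives, the 5 regional calls kept direction, and Gabra3, Gabrb1 and Gabrd passed in all of them. Gabra2 missed the threshold without both sham arrays numbered 1 and Gabra5 with the replicate block in the 6 sham arrays alone, both chosen after seeing the data. Gabrg1 passed in 10 of 22, among them a threshold of 0.1 for its own adjusted p of 0.0729, the fixed replicate block (0.38, adjusted p = 0.0296), median centring (adjusted p = 0.0449) and quantile normalization (adjusted p = 0.0349), and missed it in the rest, among them the random replicate block (adjusted p = 0.0556) and without cortical array 1 (0.29, adjusted p = 0.188). The cause was not tested. Members called higher numbered 3 or 4 and lower 2 in every alternative. The genes behind the count of higher members changed, since Gabrg1 passed in the settings where Gabra2 or Gabra5 did not.

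Over all genes the regional comparison called 1931, with 1211 in the 6 sham arrays alone and 982 with the replicate block in those arrays, fits with fewer samples; leaving out single arrays gave 1285, without sham hippocampal array 2, to 2183. After TFS it called 0, and 1 gene with array weights and 1 without both sham arrays numbered 1; leaving out single arrays gave 0 to 0. No member was called after TFS in any alternative. The sign of small differences turned. Gabra2 went to -0.048 after quantile normalization and to -0.021 without sham hippocampal array 1 or both arrays numbered 1, and lay between -0.027 and 0.080 with single arrays left out, at -0.0062 without sham array 3. Gabra3 lay between -0.051 and 0.13 and was -0.029 without TFS array 1. Gabrb1 lay between -0.11 and 0.0049 and was 6.0e-04 without TFS array 2. The replicate block changed no other call of a member. The median of all tested genes moved by less than 0.1 under both scalings.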
